A study of Mus musculus with 6 samples.

Results

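The translocases of the mitochondrial membranes were followed in B cell progenitors of old and young mice. Members were the genes whose annotated symbol starts with Timm or Tomm and a digit and that had a probe set (array probes summarised to 1 value) assigned to them alone, each gene being given by its probe set with the highest mean. There were 24 of them among 19938 such genes of the array, 10 named Tomm for the outer and 14 named Timm for the inner membrane, and together they had 30 probe sets. Outer and inner membrane genes are so called by name only, since Tomm34 is cytosolic and the small TIM chaperones work between the membranes. The old group was 3 arrays from BALB/c mice of 24 months, and the young group was 3 arrays from BALB/c mice of 2 months. BALB/c is an inbred strain, the mice carried no named allele, and the cells were not treated. On each array was RNA of pro-B and pre-B cells, the marrow stages that assemble the immunoglobulin genes, sorted as 1 population, with 100 ng of RNA amplified for a whole-transcript array. Titles name a mouse for each array without saying whether animals were pooled, and p-values therefore measure only how these arrays spread. In bulk RNA, fewer cells of a type and less RNA per cell cannot be told apart. Values are intensities on the log2 scale, differences are old minus young, and levels of different genes are not set against each other because probes differ in brightness.

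Nearly all mitochondrial proteins are made in the cytosol and enter through the TOM complex of the outer membrane. Behind it the TIM23 complex and its motor carry proteins with a cleavable targeting sequence into the inner membrane and matrix, the TIM22 complex inserts carrier proteins, and the small TIM chaperones escort hydrophobic proteins across the space between the membranes. B cell progenitors pass through rounds of rapid division, in which mitochondria must be enlarged and shared out.

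Old replicate 3 stood apart from old replicates 1 and 2 and close to the young arrays. Over probe sets (not independent of each other) r to the young arrays was 0.607 to 0.702 for old replicates 1 and 2 and 0.978 to 0.985 for old replicate 3. Between old replicates 1 and 2 it was 0.894, between these and old replicate 3 it was 0.671 and 0.746, and among young arrays 0.993 to 0.996. A background level was set on each array at the 95th percentile of 1210 probe sets of odorant and vomeronasal receptor genes, called the receptor level here. It stood at 6.29, 6.21 and 5.02 on old replicates 1, 2 and 3 and between 4.57 and 4.75 on the young arrays. On old replicates 1, 2 and 3 the number of members above it was 8, 9 and 23 of 24, against 23 of 24 on each young array. The same held for defining genes of the sorted cells, since 4, 6 and 9 of 9 measured B cell progenitor markers were above it on the old arrays and 9 of 9 on each young array. Ebf1, a B lineage transcription factor, was at 4.64, 5.61 and 9.70 in the old group, against 10.07, 10.02 and 9.90 in the young group, and Cd79a, a chain of the B cell receptor, at 5.93, 6.23 and 8.29 against 8.32, 8.36 and 8.29. Vpreb1, of the surrogate light chain, was at 11.13, 11.69 and 10.82 in the old group, against 11.15, 10.76 and 11.07 in the young group. Of the other marrow cell types, 7 neutrophil and granule genes had a median of 6.0, 5.58 and 9.71 on the old arrays and of 9.78, 9.71 and 10.34 on the young arrays, with 2, 3 and 7 above the receptor level on the old arrays and 7 on each young array. Erythroid, T cell, megakaryocyte and mature B markers had medians of at most 6.20 on every array. Above the receptor level were 1, 1 and 2 of 4 erythroid markers on the old arrays and 3, 4 and 4 on the young arrays. Of 3 mature B markers these were 0, 0 and 3 against 3 on each young array. Of 3 T cell markers they were 0, 1 and 1 against 0, 2 and 3, and of 3 megakaryocyte markers 1, 1 and 2 against 2 on each young array. The part of these differences in signal and cell content in the results was not tested. Results are therefore given for all arrays, for old replicate 3 alone and without old replicate 3, and sizes on old replicates 1 and 2 for genes below the receptor level there are not measured sizes.

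The stretches before the starts of 10 members are shown because the values below turn on these genes, the receptors and channel of the TOM complex, the TIM23 channel and the genes past the threshold on old replicate 3 that have a window. They are the 120 bases before the start in RefSeq, build GRCm38.p6, 5′ to 3′ on the gene's strand. Capitals mark CCGGAAG or its reverse complement CTTCCGG, the core bound by GABP (in human cells a regulator of mitochondrial genes), the NRF1 motif on either strand, and the CCAAT box on either strand. In Tomm22 both strands of the GABP core overlap in 1 run.
Tomm20, chr8:126945922-126946041, minus strand: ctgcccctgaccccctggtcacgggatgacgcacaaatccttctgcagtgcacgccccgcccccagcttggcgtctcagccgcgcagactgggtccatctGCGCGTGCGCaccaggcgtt
Tomm22, chr15:79670748-79670867, plus strand: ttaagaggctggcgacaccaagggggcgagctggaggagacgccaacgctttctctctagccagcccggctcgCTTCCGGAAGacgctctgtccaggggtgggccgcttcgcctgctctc
Tomm70a, chr16:57121594-57121713, plus strand: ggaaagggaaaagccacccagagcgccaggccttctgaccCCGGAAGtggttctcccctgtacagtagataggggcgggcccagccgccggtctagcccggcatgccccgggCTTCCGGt
Tomm40, chr7:19715430-19715549, minus strand: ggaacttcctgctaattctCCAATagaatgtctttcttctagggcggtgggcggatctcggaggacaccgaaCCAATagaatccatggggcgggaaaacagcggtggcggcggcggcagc
Tomm5, chr4:45108114-45108233, minus strand: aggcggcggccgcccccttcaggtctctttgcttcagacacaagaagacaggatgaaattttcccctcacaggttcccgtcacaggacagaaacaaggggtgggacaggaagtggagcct
Timm23, chr14:32201892-32202011, minus strand: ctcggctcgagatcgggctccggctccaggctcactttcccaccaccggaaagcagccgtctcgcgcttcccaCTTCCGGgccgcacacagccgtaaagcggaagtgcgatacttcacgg
Timm17a, chr1:135313738-135313857, minus strand: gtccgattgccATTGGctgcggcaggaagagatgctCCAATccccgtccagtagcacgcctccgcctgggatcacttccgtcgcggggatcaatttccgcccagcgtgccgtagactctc
Timm17b, chrX:7899216-7899335, plus strand: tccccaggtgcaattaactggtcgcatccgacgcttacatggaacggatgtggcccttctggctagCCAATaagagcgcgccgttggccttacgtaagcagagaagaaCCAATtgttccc
Timm50, chr7:28312047-28312166, minus strand: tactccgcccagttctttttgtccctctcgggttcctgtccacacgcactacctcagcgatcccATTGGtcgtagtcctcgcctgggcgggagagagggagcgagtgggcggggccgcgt
Timm8b, chr9:50603781-50603900, plus strand: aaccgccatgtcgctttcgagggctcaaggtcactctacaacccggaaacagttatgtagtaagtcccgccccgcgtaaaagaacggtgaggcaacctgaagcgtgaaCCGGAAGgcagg
Over the 250 bases before the start, the GABP core was found in 8 of the 21 members with a RefSeq window (38.1%) and in 10.2% of 17491 protein-coding genes. These 8 were Timm10, Timm23, Timm29, Timm8a2, Timm8b, Tomm22, Tomm34 and Tomm70a. Of the other 6 motifs searched on both strands, the E-box CACGTG was found in 4 members (19.0%, against 7.61% of all genes), the CCAAT box in 7 (33.3%, against 39.5%), the SP1 motif GGGCGG in 9 (42.9%, against 45.8%) and the NRF1 motif in Tomm20 alone (4.76%, against 5.84%). The YY1 motif and the CRE motif TGACGTCA were in 0 of 21, against 0.303% and 2.20% of all genes. These are matches of letters and not measured binding sites. The members without a window were Tomm7, Tomm40l and Timm21.

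Over all 6 arrays 0 of 24 members passed the threshold, an adjusted p under 0.05 with limma, and so did 0 of 23410 probe sets (0%). An unadjusted p under 0.05 was reached by 14 members lower and 2 higher in the old group, against 21.9% and 24.9% of all probe sets. In 15 members all 3 old values lay below all 3 young values, against 22.9% of all probe sets and 43.7% of the 11986 probe sets above the receptor level on all young arrays. The median difference was -0.83 over the 10 outer membrane genes and -0.91 over the 14 inner membrane genes, against 0.35 over all probe sets. On old replicates 1, 2 and 3 the median of the 24 members lay at -1.12, -0.85 and -0.29 from the young mean, and that of all probe sets at 0.48, 0.43 and 0.05. Probe sets above the receptor level on all young arrays, as 23 of the 24 members were, had medians of -0.89, -0.80 and -0.14 on the same arrays. Below all young values were 19 members on old replicate 1 and 19 on old replicate 2 (35.1% and 35.0% of all probe sets), and above them 5 and 4 (60.0% and 59.5%). Below the young mean on old replicates 1 and 2 were 19 members each. So were 68.9% and 69.6% of the probe sets above the receptor level on all young arrays. Without old replicate 3, 17 members were lower and 2 higher past the threshold, against 30.2% and 52.2% of all probe sets. For that fit the share among probe sets above the receptor level on all young arrays was not counted.

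**Figure D1:**
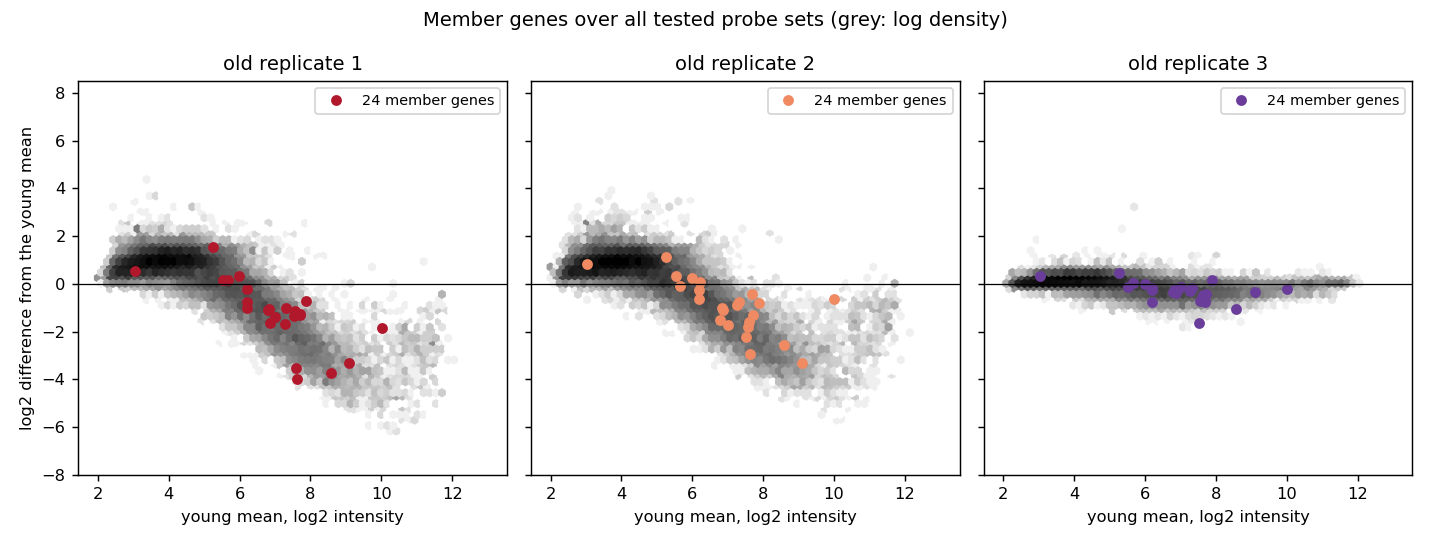
Difference of each old array from the young mean (log2, vertical axis) against the young mean (log2 intensity, horizontal axis) for the 24 members (coloured points) over all 23410 tested probe sets (grey, darker where more lie). On old replicates 1 and 2, 68.9% and 69.6% of the probe sets above the receptor level on all young arrays lie below 0, as do 19 of the 24 members on each, and on old replicate 3 the median of all probe sets is 0.05.

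On old replicate 3, the old array that resembled the young ones, 5 inner membrane genes and 1 outer membrane gene were lower than on the young arrays past the threshold. They were Timm21, Timm17a, Timm17b, Timm50 and Timm8b on the inner side and Tomm5 on the outer side, and 0 members were higher. The same fit called 5.24% of all probe sets lower and 1.76% higher, and 9.78% lower among those above the receptor level on all young arrays. With 1 old array this fit assumes that old replicate 3 varies like the young arrays, and its p-values say nothing of other old mice. In 17 members old replicate 3 lay below all 3 young arrays, against 31.8% of all probe sets and 52.5% of those above the receptor level, and in 3 it lay above them, against 41.7%. More than 1 log2 below the young mean were Timm21 and Timm17a, as were 1.12% of all probe sets and 2.08% of those above the receptor level.

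**Figure D2:**
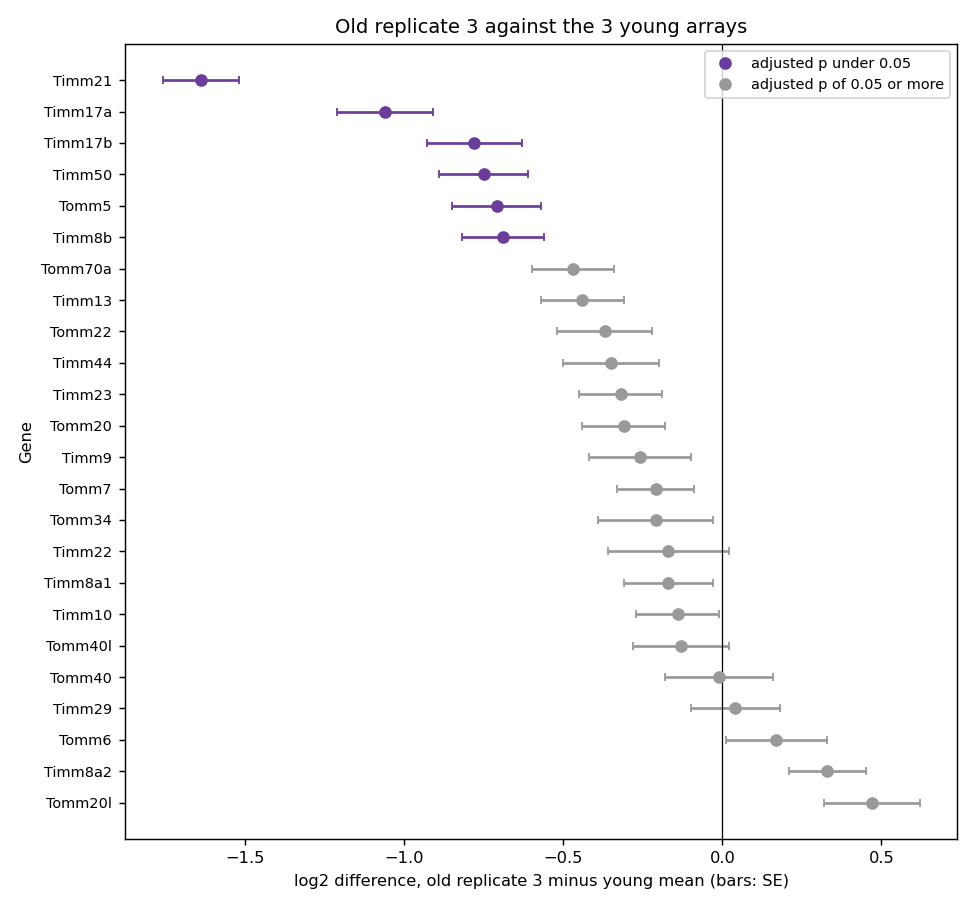
Difference of old replicate 3 from the mean of the 3 young arrays (log2, horizontal axis) for each member gene, ordered by size, with bars for the standard error of the limma fit. The 6 genes past the threshold (purple) run from Timm21 at -1.64 to Timm8b at -0.69, and Tomm20l stands highest at 0.47.

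The receptors of the TOM complex, which recognise precursors at the surface, were lower on every old array than on any young array, as were 22.9% of all probe sets and 43.7% of those above the receptor level on all young arrays. Tomm20, which binds the targeting sequence, was at 5.59, 6.39 and 6.96 on old replicates 1, 2 and 3 and at 7.21, 7.28 and 7.31 on the young arrays. The groups did not overlap, with a difference of -0.96 ± 0.36 (SE; limma adjusted p = 0.101). Its second probe set gave -1.20. Tomm22, the receptor that joins the parts of the complex, was at 5.24, 5.78 and 6.49 in the old group, against 6.71, 6.96 and 6.94 in the young group. Again the groups stood apart, by -1.03 ± 0.34 (SE; limma adjusted p = 0.101). Tomm70a, which receives carrier proteins from cytosolic chaperones, was at 3.65, 4.69 and 7.15 in the old group, against 7.59, 7.56 and 7.73 in the young group. Old replicates 1 and 2 were far below and old replicate 3 little below the young values, and the mean was 5.16 ± 1.80 in the old and 7.63 ± 0.09 in the young group (SD, n = 3 each; difference -2.46 ± 0.82, SE; limma adjusted p = 0.101). With old replicate 3 alone the 3 receptors differed from the young mean by -0.31, -0.37 and -0.47, none past the threshold (limma adjusted p = 0.16, 0.155 and 0.075), though Tomm70a passed after centring these arrays and without young replicate 3. Without old replicate 3 all 3 passed, at -1.28, -1.36 and -3.46 (limma adjusted p = 0.00246, 0.000832 and 0.0001). The same fit called 30.2% of all probe sets lower and 52.2% higher. Tomm22 and Tomm70a were below the receptor level on old replicates 1 and 2, and Tomm20 on old replicate 1, so sizes there are not measured sizes.

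The channel of the TOM complex and its small subunits did not share 1 pattern. Tomm40, the barrel through which precursors pass, was at 6.31, 6.24 and 5.98 in the old group, against 6.10, 5.76 and 6.12 in the young group. These values overlapped (0.19 ± 0.22, SE; limma adjusted p = 0.472), and the sign turned after centring the arrays. On old replicates 1 and 2 Tomm40 stood just above the receptor levels of 6.29 and 6.21. All its young values lay below those levels, so the size of a fall on these arrays could not be measured. Tomm5, a small subunit beside the barrel, was at 6.44, 5.77 and 6.86 in the old group, against 7.54, 7.48 and 7.67 in the young group. All old values lay below all young values, with a difference of -1.21 ± 0.31 (SE; limma adjusted p = 0.101). With old replicate 3 alone Tomm5 was lower by -0.71 ± 0.14 (SE; limma adjusted p = 0.0299), which was lost after quantile normalization of these arrays (0.0666) and without young replicate 1 (0.0896) or 2 (0.0502). Tomm6, another small subunit, was at 7.15, 7.06 and 8.04 in the old group, against 7.90, 7.69 and 8.03 in the young group. Old replicate 3 thus lay just above all young values and old replicates 1 and 2 below them, and the difference of -0.46 became 0.58 after quantile normalization. Tomm7, known in mammalian cells for holding the kinase PINK1 at the outer membrane, was at 8.16, 9.38 and 9.80 in the old group, against a mean of 10.01 ± 0.01 in the young group (SD, n = 3). Its values did not overlap, by -0.90 ± 0.42 (SE; limma adjusted p = 0.124), but the difference became 0.29 after quantile normalization. Without old replicate 3, Tomm5, Tomm6 and Tomm7 were lower past the threshold at -1.46, -0.77 and -1.24 (limma adjusted p = 0.000872, 0.00309 and 0.0115), and Tomm40 did not pass at 0.29 (0.133). Tomm5 was below the receptor level on old replicate 2, so its size there is not a measured size.

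Of the 3 other Tomm genes 1 was higher on every old array. Tomm20l, named for its likeness to Tomm20, was at 6.80, 6.40 and 5.73 in the old group, against 5.10, 5.39 and 5.29 in the young group. The old values lay above all young values by 1.05 ± 0.31 (SE; limma adjusted p = 0.101), and by 0.47 on old replicate 3 (limma adjusted p = 0.1). Higher in all 3 old arrays were 36.1% of all probe sets. The receptor level was higher on the old arrays as well, at 6.29, 6.21 and 5.02 against 4.57 to 4.75 on the young arrays. Its part in the difference of Tomm20l was not tested. Tomm34, a cytosolic partner of the chaperones Hsp70 and Hsp90 and not a membrane subunit, was at 5.79, 5.82 and 6.63 in the old group, against 7.05, 6.84 and 6.63 in the young group. Only its old replicate 3 reached the young range (-0.76 ± 0.30, SE; limma adjusted p = 0.101). Tomm40l, a relative of the barrel, ran from 5.40 to 5.87 on the old and from 5.41 to 5.67 on the young arrays, and its difference of 0.13 (limma adjusted p = 0.633) turned to -0.22 after centring. Without old replicate 3, Tomm20l was higher at 1.34 and Tomm34 lower at -1.04 (limma adjusted p = 0.000559 and 0.00115), and Tomm40l did not pass at 0.25 (0.14).

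**Figure D3:**
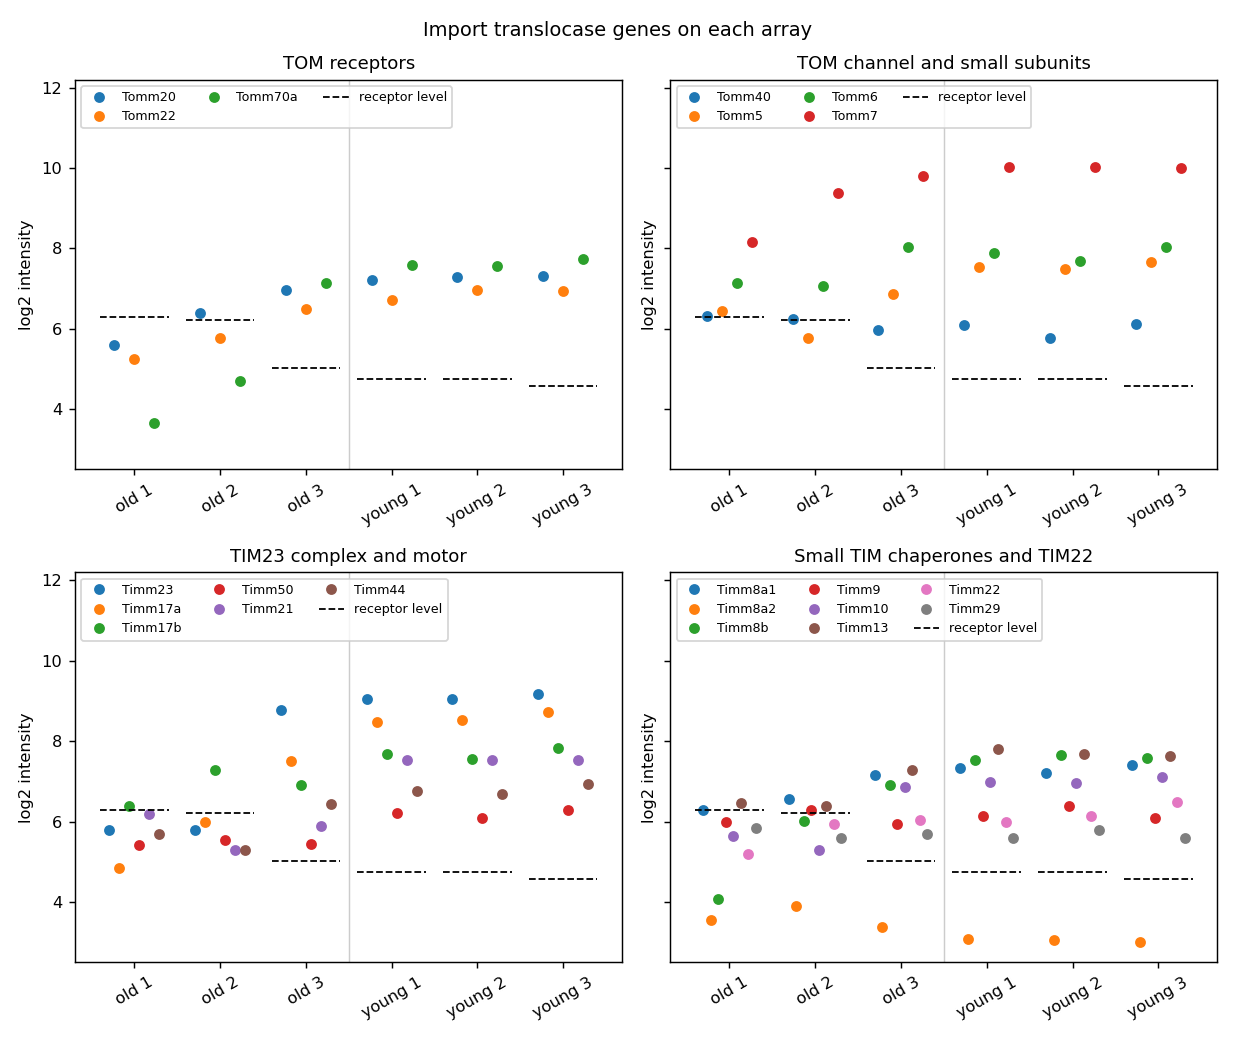
Log2 intensity (vertical axis) of the translocase subunits on the 3 old arrays, left, and the 3 young arrays, right (horizontal axis), with the receptor level of each array as a dashed line. Each point is 1 gene on 1 array. Timm50 keeps to 5.42 to 5.55 on all old arrays, below its lowest young value of 6.10, whereas Tomm70a stands at 3.65 and 4.69 on old replicates 1 and 2 and at 7.15 on old replicate 3. On old replicates 1 and 2 both genes are below the receptor level, so sizes there are not measured sizes.

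In the TIM23 complex and its motor all 6 genes were lower on each of the 3 old arrays than on any young array (the sign of the Timm17b difference turned after quantile normalization), with a median of -1.32, -1.87 and -0.77 from the young mean on old replicates 1, 2 and 3. The same non-overlap held for 22.9% of all probe sets and 43.7% of those above the receptor level on all young arrays, whose medians were -0.89, -0.80 and -0.14. All 6 genes passed the threshold with limma without old replicate 3. That fit called 30.2% of all probe sets lower and 52.2% higher. Timm21, which in yeast links the TIM23 complex to the TOM complex and the respiratory chain, was at 6.19, 5.30 and 5.89 in the old group, against 7.54, 7.52 and 7.53 in the young group. The old values were low on all 3 arrays, averaging 5.80 ± 0.46 in the old and 7.53 ± 0.01 in the young group (SD, n = 3 each; difference -1.74 ± 0.28, SE; limma adjusted p = 0.101). On old replicates 1 and 2 Timm21 was below the receptor level, so the sizes there are not measured sizes. With old replicate 3 alone Timm21 was lower by -1.64 ± 0.12 (SE; limma adjusted p = 0.00273). Timm21 also passed under each of the 5 alternatives run for old replicate 3, with differences between -1.77 and -1.51 and adjusted p up to 0.0184 with limma. Its difference without old replicate 3 was -1.78 (limma adjusted p = 0.000825).

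Timm50, the inner membrane receptor that takes precursors from the TOM complex, was at 5.42, 5.55 and 5.45 in the old group, against 6.21, 6.10 and 6.28 in the young group. The 3 old values lay within 1 narrow band, averaging 5.47 ± 0.06 in the old and 6.20 ± 0.09 in the young group (SD, n = 3 each; difference -0.72 ± 0.19, SE; limma adjusted p = 0.101). The young values were themselves near the receptor levels of old replicates 1 and 2, 6.29 and 6.21. With values raised to the receptor level the difference was -0.22 (limma adjusted p = 0.569). Only old replicate 3 was above its receptor level, and there Timm50 was lower by -0.75 ± 0.14 (SE; limma adjusted p = 0.0259). The call was lost without young replicate 1 (limma adjusted p = 0.0846). The difference without old replicate 3 was -0.71 (limma adjusted p = 0.00256).

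Timm17a and Timm17b, alternative partners of the TIM23 channel, both stood below the young range. Timm17a, which human cells degrade when cytosolic translation is attenuated, was at 4.85, 5.99 and 7.51 in the old group, against 8.48, 8.52 and 8.73 in the young group (-2.46 ± 0.62, SE; limma adjusted p = 0.101). Old replicate 3 was the nearest to the young values and still lower by -1.06 ± 0.15 (SE; limma adjusted p = 0.0146), a call lost without young replicate 1 (0.0505). The second probe set of Timm17a was at 6.45, 6.19 and 7.23 in the old group, against 7.71, 7.60 and 7.94 in the young group, and its difference on old replicate 3 did not pass (limma adjusted p = 0.0907). Timm17b was at 6.39, 7.28 and 6.92 in the old group, against 7.69, 7.56 and 7.84 in the young group. It was the one gene of the complex above the receptor level on all 6 arrays, and differed by -0.83 ± 0.28 (SE; limma adjusted p = 0.101), which became 0.13 after quantile normalization. For old replicate 3 alone Timm17b was lower by -0.78 ± 0.15 (SE; limma adjusted p = 0.0294), a call lost after quantile normalization of these arrays (0.0568) and without young replicate 1 (0.0894). Timm17a differed by -3.15 and Timm17b by -0.86 without old replicate 3 (limma adjusted p = 0.000206 and 0.0204). The sizes of Timm17a on old replicates 1 and 2, where it was below the receptor level, are not measured sizes.

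Timm23, the channel itself, was at 5.80, 5.79 and 8.78 in the old group, against 9.04, 9.06 and 9.18 in the young group. Old replicates 1 and 2 were below the receptor level and old replicate 3 was close to the young values, at -0.32 ± 0.13 (SE; limma adjusted p = 0.167). The difference over all arrays was -2.31 ± 0.79 (SE; limma adjusted p = 0.101), and without old replicate 3 it was -3.30 (limma adjusted p = 6.22e-06). Its 4 probe sets differed by -2.31, -2.31, -2.74 and -2.74 over all arrays, and 1 pair of them held equal values within 1e-06 on every array, so they are not separate measurements. The reference annotation also lists a Timm23 pseudogene, from which the probes may not tell the gene apart. Timm44, which tethers the mitochondrial Hsp70 motor to the channel, was at 5.69, 5.28 and 6.44 in the old group, against 6.76, 6.68 and 6.94 in the young group. Its groups did not overlap (-0.99 ± 0.33, SE; limma adjusted p = 0.101), and on old replicate 3 it differed by -0.35 (limma adjusted p = 0.171). Timm44 differed by -1.31 without old replicate 3 (limma adjusted p = 0.000573). Like Timm23, Timm44 was below the receptor level on old replicates 1 and 2, so sizes of both genes there are not measured sizes.

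**Figure D4:**
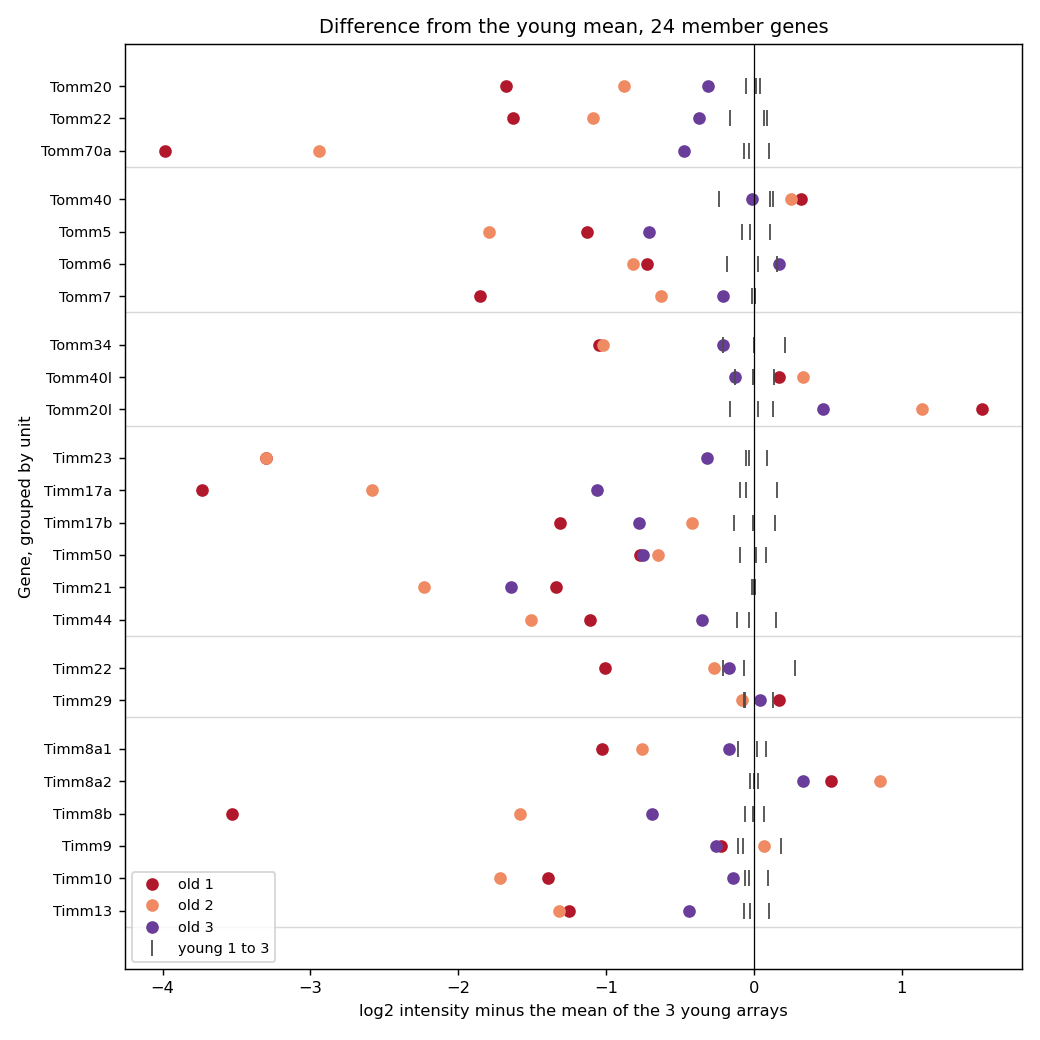
Log2 intensity minus the mean of the 3 young arrays (horizontal axis) for each member gene (vertical axis, grouped by complex from the TOM receptors at the top to the small TIM chaperones at the bottom). Coloured points are the old arrays and upright ticks the young arrays. In the TIM23 group all 18 old points lie below the young ticks, while Timm29, Timm9 and Tomm40 lie around 0. Young values of Timm29, Timm9 and Tomm40 are below or near the receptor levels of old replicates 1 and 2, 6.29 and 6.21.

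Neither of the 2 genes of the TIM22 complex with a probe set of their own passed the threshold over all arrays. Timm22, the channel for carrier proteins, was at 5.19, 5.93 and 6.03 in the old group, against 5.99, 6.13 and 6.48 in the young group, with overlap (-0.48 ± 0.30, SE; limma adjusted p = 0.2). Timm29, a subunit of the complex described in human cells, was at 5.83, 5.58 and 5.70 in the old group, against 5.60, 5.79 and 5.59 in the young group. The ranges were much the same (0.04 ± 0.20, SE; limma adjusted p = 0.858), and the sign turned after centring, with array weights and without old replicate 1. The annotation lists a Timm29 pseudogene too. Both genes were below the receptor level on old replicates 1 and 2, and neither passed without old replicate 3, at -0.64 and 0.04 (limma adjusted p = 0.0525 and 0.787). All young values of Timm29, and those of Timm22 on young replicates 1 and 2, lay below these levels of 6.29 and 6.21. The size of a fall on old replicates 1 and 2 could therefore not be measured.

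Among the small TIM chaperones Timm8b, Timm8a1, Timm10 and Timm13 were lower on every old array than on any young array (the sign of the Timm8a1 difference turned after quantile normalization), whereas the values of Timm9 overlapped. These were 4 of 6 genes, against 22.9% of all probe sets and 43.7% of those above the receptor level on all young arrays. Timm8b was at 4.07, 6.01 and 6.90 in the old group, against 7.53, 7.66 and 7.59 in the young group. The old arrays lay far apart but all below the young ones, with a mean of 5.66 ± 1.45 in the old and 7.60 ± 0.07 in the young group (SD, n = 3 each; difference -1.94 ± 0.67, SE; limma adjusted p = 0.101). For old replicate 3 alone Timm8b was lower by -0.69 ± 0.13 (SE; limma adjusted p = 0.0283), a call lost after quantile normalization of these arrays (0.0893) and without young replicate 1 (0.0787) or 2 (0.062). The difference without old replicate 3 was -2.56 (limma adjusted p = 0.0032). On old replicates 1 and 2 Timm8b was below the receptor level, so the sizes there are not measured sizes.

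Timm13, which pairs with Timm8 proteins to escort the Timm23 precursor, was at 6.46, 6.39 and 7.28 in the old group, against 7.81, 7.68 and 7.64 in the young group. It was above the receptor level on all 6 arrays and did not overlap (-1.0 ± 0.29, SE; limma adjusted p = 0.101), with -0.44 on old replicate 3 (limma adjusted p = 0.0895). Timm8a1, whose human counterpart is mutated in a deafness and dystonia syndrome, was at 6.29, 6.55 and 7.15 in the old group, against 7.34, 7.21 and 7.40 in the young group. Old replicate 3 was just below the young values, and the difference of -0.65 ± 0.27 (SE; limma adjusted p = 0.107) became 0.13 after quantile normalization. Its second probe set gave -0.49. Timm13 and Timm8a1 differed by -1.29 and -0.90 without old replicate 3 (limma adjusted p = 0.000204 and 0.00141).

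Timm10 and Timm9 build the general chaperone of this family. Timm10 was at 5.63, 5.29 and 6.87 in the old group, against 6.98, 6.95 and 7.11 in the young group (-1.08 ± 0.42, SE; limma adjusted p = 0.101). Only old replicates 1 and 2 were far from the young values, and without old replicate 3 the difference was -1.55 (limma adjusted p = 0.000186). On those 2 arrays Timm10 was below the receptor level, so the sizes there are not measured sizes. Timm9 was at 5.98, 6.28 and 5.95 in the old group, against 6.13, 6.39 and 6.10 in the young group. On old replicate 1 it was below the receptor level of 6.29, and on old replicate 2 just above that of 6.21. Its groups overlapped (-0.14 ± 0.22, SE; limma adjusted p = 0.591), as they did without old replicate 3 (-0.08, adjusted p = 0.679), the sign turned after quantile normalization and with array weights, and in the reference annotation the gene overlaps the end of Tomm20l on chromosome 12. Timm8a2, a relative of Timm8a1, was at 3.56, 3.89 and 3.37 in the old group, against 3.07, 3.04 and 3.01 in the young group, below the receptor level on all 6, so no size of change is given. The probe set shared by Timm10b and Dnhd1 was at 4.89, 5.10 and 4.78 in the old group, against 4.96, 4.98 and 4.95 in the young group and cannot be ascribed to either gene.

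The other genes of the import pathway, from barrel assembly to the processing peptidases, were listed by role, and 24 had a probe set of their own. Among these was Timmdc1, a complex I assembly gene listed for its likeness to the Timm17 family. It counts among the 18 and the 20 lower genes given below. Over all 6 arrays 0 of 24 passed the threshold. In 18 all old values lay below all young values and in 1, Grpel2, above, against 22.9% and 36.1% of all probe sets, and 43.7% lower among those above the receptor level on all young arrays. The median difference was -0.69, against 0.35 over all probe sets. Without old replicate 3, 20 were lower and 1 higher past the threshold, against 30.2% and 52.2% of all probe sets. For that fit the share among probe sets above the receptor level on all young arrays was not counted. All 24 were above the receptor level on each young array. Probe sets above it on all young arrays had medians of -0.89, -0.80 and -0.14 from the young mean on old replicates 1, 2 and 3. Those of the 24 genes were -1.07, -0.86 and -0.36. On old replicate 3 alone 1 of 24 was lower past the threshold and 0 were higher, a share no larger than the 5.24% of all probe sets called lower, or the 9.78% among those above the receptor level on all young arrays. The gene was Mtx1, a metaxin of the outer membrane assembly machinery, at 4.78, 5.53 and 5.31 in the old group, against 6.37, 6.35 and 6.50 in the young group. On old replicates 1 and 2 Mtx1 was below the receptor level, so the sizes there are not measured sizes. Like Timm21 it was low on all 3 old arrays, by -1.20 ± 0.26 over all arrays (SE; limma adjusted p = 0.101) and by -1.10 ± 0.13 on old replicate 3 (SE; limma adjusted p = 0.0105). Romo1, a small inner membrane protein that human cells need for TIM21 and TIM23 function, differed by -1.33 over all arrays and -0.47 on old replicate 3. Mtch1, a relative of the outer membrane insertase Mtch2, differed by -1.03 and -0.45, and Samm50, the barrel-assembling channel, by -1.94 and -0.53. Samm50 was below the receptor level on old replicates 1 and 2 and Mtch1 on old replicate 1, so sizes there are not measured sizes. Grpel2, an exchange factor of the mitochondrial Hsp70, stood at 6.47, 6.88 and 6.07 in the old group, against 6.06, 6.03 and 5.99 in the young group (0.45 ± 0.26, SE; limma adjusted p = 0.18), and Xpnpep3, a peptidase, differed by 0.03.

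**Figure D5:**
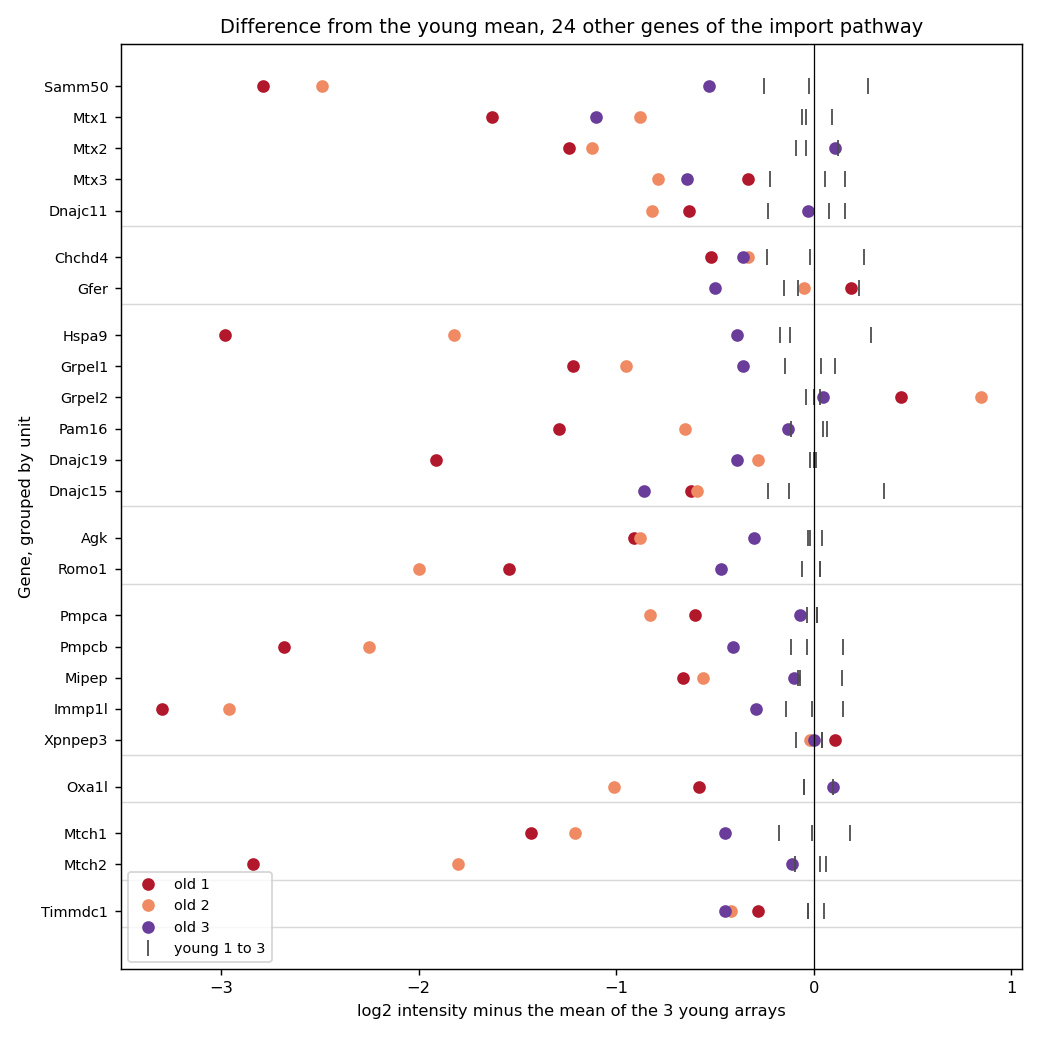
Log2 intensity minus the mean of the 3 young arrays (horizontal axis) for 24 other genes of the import pathway (vertical axis, grouped by role), with coloured points for the old arrays and upright ticks for the young arrays. Mtx1 lies at -1.63, -0.88 and -1.10 on old replicates 1, 2 and 3, and Immp1l at -3.30, -2.96 and -0.29. On old replicates 1 and 2 both genes are below the receptor level, so sizes there are not measured sizes.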

How the data were processed

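RNA of pro-B and pre-B cells from 3 old and 3 young mice was measured on 6 arrays. The deposited values are probe set intensities, which the authors made with RMA per the submitters' processing notes; for its version, its settings and a genome build, the sources used here give none. The values run on a linear scale from 3.58 to 8502, and the 6 arrays do not share 1 distribution. Log2 was taken of them. The table has 28940 probe sets, of which 21789 have 1 gene, 1621 several and 5530 none in the platform annotation, and the 23410 with a gene were tested. Differences were fitted with limma 3.58.1 in R 4.3.3, with age as the only factor, moderated variances, 2-sided p and the Benjamini-Hochberg adjustment over all tested probe sets. The code was tested on simulated data. Tables used Python 3.11.15 with numpy 2.4.6 and pandas 2.3.3, and figures matplotlib 3.10.9. The members, the lists and the receptor level were chosen with earlier results of these data known.

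Every member was named. Values on each array were given for the subunits of the complexes, and of the other pathway genes the 4 with the smallest p among the lower and 2 among the higher were named. Timm10b, the pseudogenes, Immp1l and Timmdc1 were added after their values were seen. No detection calls were used, and the number of arrays limits the precision.

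The groups share replicate numbers in the titles. As a check of pairing, each array's deviation from its group mean was correlated between same-numbered arrays, giving r of 0.157, 0.15 and 0.279, all above 0.1, so the number was fitted as a block in an alternative. The pair of old replicate 1 and young replicate 2 gave 0.153, and the labels name no shared animal or day. The alternatives were the replicate block, leaving out each array, old replicate 3 alone, dropping the dimmest probe sets (mean log2 level under the 30th percentile, 4.32), testing the whole table, centring, quantile normalization, trended robust moderation, array weights, an adjusted p under 0.1, the mean of a gene's probe sets and values raised to the receptor level. For old replicate 3 alone, 2 other scalings and leaving out each young array were added after seeing the data.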

Additional observations from a re-analysis of the deposited data

How the results depend on the processing

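Counts of calls turned on 1 array. Leaving out each array in turn gave from 0 to 19285 called probe sets, from 0 to 19 members and from 0 to 21 other pathway genes, and the high value came without old replicate 3 in each case. Estimated array weights called 19998 probe sets, 20 members and 20 other pathway genes. The weight of old replicate 3 was 0.0447, against 0.288 to 4.26 for the other arrays. This setting therefore came close to leaving that array out and is not a separate check. Values raised to the receptor level gave 15829 (3187 lower and 12642 higher), 10 (8 lower and 2 higher) and 7 (all lower). That level was higher on each old array than on any young array. A probe set below it on every array therefore came out higher in the old group by construction. This held for Timm8a2, 1 of the 2 members called higher. How many other calls arose so was not counted, and the cause of the rest was not tested. Old replicate 3 alone called 1638 probe sets, 6 members and 1 other pathway gene. The replicate block, the 30th percentile filter, the whole table, centring, quantile normalization, trended robust moderation and an adjusted p under 0.1 each gave 0 probe sets, and these and the mean of a gene's probe sets gave 0 members, so the replicate block changed no call. The smallest adjusted p over all probe sets was 0.101 in the reported fit, 0.0672 with trended robust moderation, 0.081 with the replicate block and 0.0959 with the filter.

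The median of the outer membrane genes, -0.83, was -0.21 on old replicate 3 alone and -0.07 after quantile normalization, and that of the inner membrane genes, -0.91, was -0.34 on old replicate 3 alone and -0.48 after quantile normalization. Without old replicate 1 the outer median was -0.51, the highest over the arrays left out, and the lowest was -1.14, without old replicate 3. Centring lowered the median of all probe sets from 0.35 to 0.00, the outer median to -1.18 and the inner to -1.26. It turned the sign of Tomm40 (-0.16), Tomm40l (-0.22) and Timm29 (-0.30). Quantile normalization turned Tomm6 (0.58), Tomm7 (0.29), Timm17b (0.13), Timm8a1 (0.13) and Timm9 (0.32). Array weights turned Timm29 (-0.07) and Timm9 (0.02), and leaving out old replicate 1 turned Timm29 (-0.02; from -0.02 to 0.11 over the arrays left out). On old replicate 3 alone Tomm40 stood at -0.01, Tomm40l at -0.13 and Tomm6 at 0.17. The cause of these turns was not tested. Timm8a2 fell under the 30th percentile and was not tested with that filter.

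For old replicate 3 alone, quantile normalization called 3 members (Timm17a, Timm50 and Timm21), and centring called 2675 probe sets and 6 other pathway genes. Leaving out each young array in turn gave from 189 to 3920 probe sets (927 without young replicate 2), from 1 to 9 members and from 1 to 5 other pathway genes, lowest without young replicate 1, where Timm21 alone of the members passed, and highest without young replicate 3. Signal over background limits the sizes on old replicates 1 and 2, where 8 and 9 of 24 members were above the receptor level, and 7 were above it on all 6 arrays.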
